A study of Homo sapiens with 18 samples.

Results

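TSPOAP1, HPDL, TANC2, BRINP2, MMP12 and DHRS2 are 6 genes, of 21662 listed in the data, that are little studied in lymphoma and were picked because their RNA fell by a large amount after icaritin. Their rows were taken by NCBI Gene ID from 18 RNA-seq libraries. SNT-8, SNT-16 and SNK-10, the cell lines used, are taken here as lines of NK/T cell lymphoma, a cancer of natural killer or T cells. The disease of the patient behind each line was not checked. The labels give the genotype of the lines as wild type. Each line received DMSO, the solvent control, or icaritin, a prenylated flavonoid from Epimedium plants, for 12 h, with 3 libraries in each of the 6 groups. The dose is not given in the sources used here, and nothing says whether replicates came from separate cultures, so every p-value measures only the spread between these libraries. The falls after icaritin chose the genes and are therefore given as descriptions, with errors and without tests. The levels of the genes in DMSO cells of different lines, their neighbours and their relatives were not used in the choice. They were tested where counts were high enough. The relatives were listed with earlier results of these data known.

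The genes have little in common by known function. TSPOAP1, also called RIMBP1, is a scaffold that binds the mitochondrial protein TSPO and, at synapses, ties calcium channels to the release machinery. TANC2 is a scaffold of the postsynaptic side of excitatory synapses, and BRINP2 is a neural protein with a MACPF domain, the fold shared with perforin and complement. HPDL is a mitochondrial enzyme related to the tyrosine-degrading dioxygenase HPD, and it takes part in making the head group of coenzyme Q, the electron carrier of the respiratory chain. MMP12 is a secreted metalloproteinase that cleaves elastin and is best known from macrophages. DHRS2 is a short-chain dehydrogenase that reduces carbonyl compounds.

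Each library held an estimated 9526431 to 10100453 gene counts, and 14396 genes had enough of them to be tested, all 6 genes included. A level in CPM is the share of a library's counts, scaled to counts per 1e6 after TMM normalization, which corrects for differences in composition, and a level in FPKM is also divided by transcript length. In every group, 8 of 8 NK and T cell markers lay at 1 CPM or more, and together they summed to between 1795 and 3728 CPM. Of the 7 neuronal markers, between 4 and 7 lay under 1 CPM in each group. They summed to 1.32 to 2.58 CPM over the libraries of the SNT lines. In SNK-10 they summed to 11.6 to 12.2 CPM in DMSO and 7.31 to 9.87 CPM in icaritin libraries. The share of counts from the mitochondrial 16S RNA gene RNR2 was higher in icaritin than in DMSO libraries of every line, 0.83% to 1.55% against 1.65% to 5.12%. With both mitochondrial rRNA genes removed before scaling, each of the 18 falls moved by less than the spread between its replicates (TSPOAP1 in SNT-16, for example, from -3.06 to -3.08 on the log2 scale). Many genes changed. Icaritin lowered 25.0% of the tested genes in SNT-8, 24.0% in SNK-10 and 20.8% in SNT-16 (edgeR's quasi-likelihood test, adjusted p under 0.05), and 2.29%, 2.47% and 1.56% fell at least 2-fold. All icaritin libraries lay below all DMSO libraries for 27.6% of tested genes in SNT-8, 27.4% in SNK-10 and 26.1% in SNT-16. The 6 genes did so in every line, from which nothing is read because they were picked on this contrast.

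Genes on the scaffold side are described first. TSPOAP1 (NCBI Gene 9256) had the largest falls of the 6, and they were nearly the same size in all 3 lines. In SNT-8 it lay at 39.5, 50.7 and 48.2 CPM in the DMSO libraries and at 6.39, 3.81 and 6.88 CPM in the icaritin libraries. In SNK-10 it lay at 21.4, 24.7 and 25.7 CPM against 2.92, 3.01 and 2.85 CPM. The groups were far apart in both lines, with the lowest DMSO library several times above the highest icaritin library. In SNT-16 it lay at 31.8, 25.4 and 26.9 CPM against 4.19, 2.07 and 3.75 CPM, again without overlap. The log2 fold change was -3.01 in SNT-8 (95% interval -3.35 to -2.68), -3.02 in SNK-10 (-3.45 to -2.59) and -3.06 in SNT-16 (-3.46 to -2.67). What was left was 12.35%, 12.25% and 11.91% of the DMSO mean. Among genes with a mean of at least 10 CPM over both arms of a line, 0 of 9132 in SNT-8, 0 of 9391 in SNK-10 and 0 of 9190 in SNT-16 fell by more. Over all 14396 tested genes, low ones included, 23, 13 and 17 had a lower log2 fold change. Nothing is read from these ranks, since TSPOAP1 was picked for its fall. It also reached 10 CPM only through its DMSO libraries. The icaritin values rest on 21 to 70 counts a library.

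The antisense gene TSPOAP1-AS1 overlaps TSPOAP1, and no source used here says whether the counting used strand, so reads in the overlap cannot be told apart. TSPOAP1-AS1 lay at 26.1, 25.6 and 23.7 CPM in DMSO and at 21.8, 23.2 and 23.7 CPM in icaritin libraries of SNT-8, which nearly met. Its log2 fold change there, -0.14 (SE 0.0832), did not pass the threshold (edgeR adjusted p = 0.178). It fell by 0.22 on the log2 scale in SNK-10 (SE 0.0869, edgeR adjusted p = 0.0315) and by 0.25 in SNT-16 (SE 0.0865, edgeR adjusted p = 0.0198). Both calls were lost with DESeq2 (adjusted p = 0.106 and 0.0638) and without single libraries (edgeR adjusted p up to 0.136 and 0.0795). After icaritin TSPOAP1-AS1 thus kept 84.33% to 90.95% of its DMSO level while TSPOAP1 kept 11.91% to 12.35%. The neighbour on the other side, the myeloperoxidase gene MPO, averaged 0.00563 CPM over all libraries and was not tested.

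TANC2 (NCBI Gene 26115) fell most in SNT-8 and least in SNK-10, the line where it started highest. It lay at 18.4, 23.4 and 20.8 CPM in DMSO and 4.49, 2.21 and 3.74 CPM in icaritin libraries of SNT-8. In SNK-10 it lay at 48.3, 46.6 and 45.6 CPM against 16.8, 15.4 and 15.7 CPM. In SNT-16 it lay at 31.9, 32.7 and 31.4 CPM against 9.74, 6.91 and 8.59 CPM. No group of a line overlapped the other, but the icaritin libraries of SNK-10 came close to the DMSO libraries of SNT-8. The log2 fold changes were -2.58 in SNT-8 (95% interval -2.90 to -2.26), -1.55 in SNK-10 (-1.77 to -1.33) and -1.92 in SNT-16 (-2.18 to -1.67). Its neighbour CYB561 averaged 2.42 CPM and passed the threshold in none of the 3 lines (edgeR adjusted p = 0.478, 0.779 and 0.209).

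BRINP2 (NCBI Gene 57795) was present mainly in the SNT lines. It lay at 29.9, 28.9 and 25.2 CPM in DMSO libraries of SNT-8 and at 8.98, 4.11 and 7.67 CPM after icaritin. In SNT-16 it lay at 33.9, 31.9 and 31.1 CPM against 7.80, 10.8 and 12.9 CPM. In SNK-10 it was already low, at 3.05, 3.36 and 2.54 CPM, and went to 1.08, 1.51 and 1.54 CPM, which is 24 to 32 counts against 10 to 14 counts a library. The arms did not overlap in any line, but in SNK-10 they were close. The log2 fold changes were -2.01 in SNT-8 (95% interval -2.37 to -1.65), -1.62 in SNT-16 (-1.95 to -1.30) and -1.11 in SNK-10, with the widest interval of all 18 values (-1.91 to -0.31). In SNK-10, 338 tested genes had a lower log2 fold change. In bulk RNA, fewer cells with a transcript and less of it per cell cannot be told apart, for this gene and for the others.

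**Figure D1:**
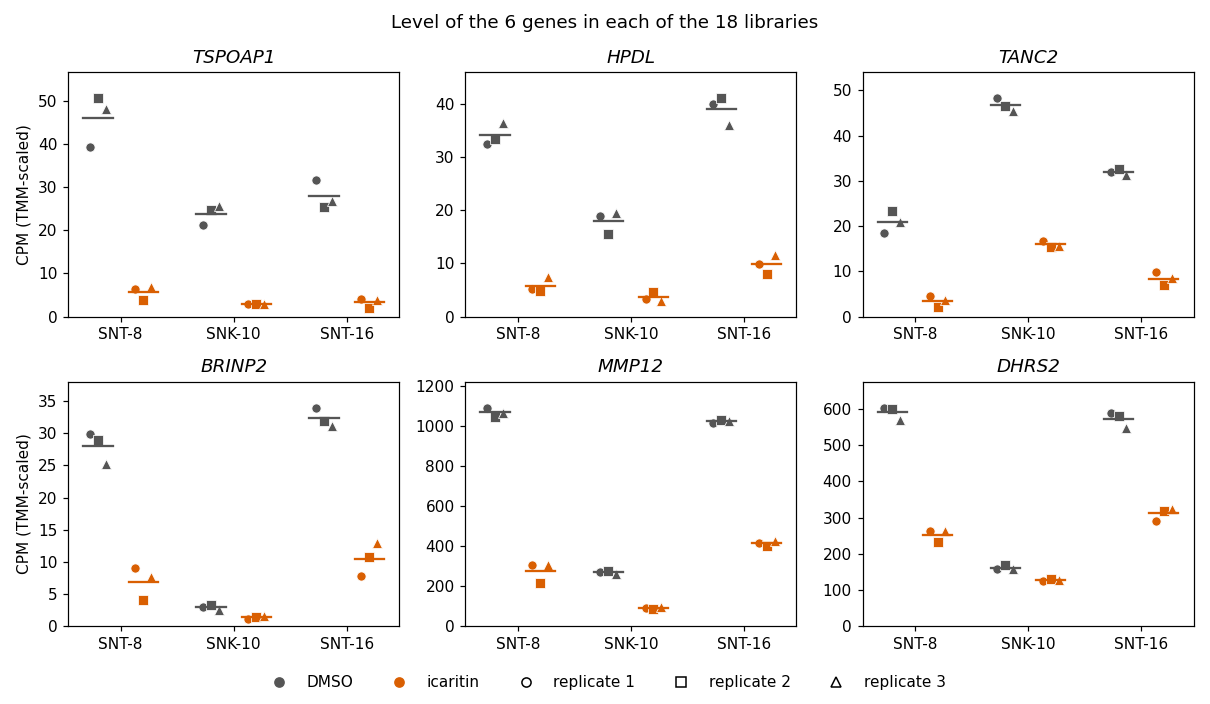
Level of each of the 6 genes, in CPM (TMM-scaled, linear axis from 0), in each of the 18 libraries; grey marks are DMSO, orange marks icaritin, marker shape gives the replicate number and short lines the mean of 3. In every line each orange group lies below its grey group. BRINP2, MMP12 and DHRS2 are lowest in SNK-10 with DMSO (means 2.98, 269 and 162 CPM), and TANC2 is highest there (46.8 CPM).

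Among the enzymes, HPDL (NCBI Gene 84842) fell steeply. In SNT-8 it lay at 32.5, 33.4 and 36.3 CPM in DMSO and 5.09, 4.72 and 7.47 CPM in icaritin libraries. In SNK-10 it lay at 18.9, 15.5 and 19.4 CPM against 3.36, 4.62 and 2.96 CPM, and in SNT-16 at 39.9, 41.0 and 36.0 CPM against 9.94, 7.90 and 11.6 CPM. All 9 icaritin libraries lay below all 9 DMSO libraries, whichever the line. The log2 fold changes were -2.56 in SNT-8 (95% interval -2.85 to -2.27), -2.30 in SNK-10 (-2.66 to -1.93) and -1.99 in SNT-16 (-2.25 to -1.73). Of the genes with a mean of at least 10 CPM over both arms, 3 fell by more in SNT-8, 1 in SNK-10 and 4 in SNT-16. Over all tested genes 42, 28 and 64 did. Nothing is read from these ranks either, since HPDL was picked for its fall and its icaritin means lay below 10 CPM. The next gene, MUTYH, a DNA glycosylase gene, did not go down: it was at 24.1 and 30.3 CPM in DMSO and icaritin libraries of SNT-8, where it rose (log2 fold change 0.33, SE 0.0846, edgeR adjusted p = 0.00115), and did not pass the threshold in SNK-10 (0.13) or SNT-16 (0.10), with edgeR adjusted p = 0.230 and 0.373.

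MMP12 (NCBI Gene 4321) was the most abundant of the 6 in DMSO cells. In SNT-8 it lay at 1093, 1046 and 1069 CPM in DMSO and 307, 218 and 304 CPM in icaritin libraries. In SNT-16 it lay at 1018, 1030 and 1029 CPM against 415, 401 and 426 CPM, and in SNK-10 at 269.5, 277.5 and 261 CPM against 92.9, 88.0 and 96.5 CPM. The spread within groups was small beside the distance between them, except that SNT-8 icaritin replicate 2 stood below its 2 companions. The log2 fold changes were -1.95 in SNT-8 (95% interval -2.15 to -1.76), -1.54 in SNK-10 (-1.76 to -1.33) and -1.31 in SNT-16 (-1.50 to -1.12). By mean FPKM, the scale that allows genes to be compared, MMP12 ranked 111th of 18664 genes listed in DMSO cells of SNT-8 (562 ± 11.1 FPKM), 110th in SNT-16 (557 ± 3.39) and 428th in SNK-10 (141 ± 4.45; SD, n = 3 each). After icaritin it ranked 386th, 249th and 1509th. Its neighbours were nearly silent, WTAPP1 at 0.199 CPM and MMP13 at 0.0422 CPM on the mean of all libraries, too low to test. Of 7 macrophage markers, 3 or 4 lay under 1 CPM in every group. The 7 together summed to 33.4 to 35.0 CPM in DMSO and 26.8 to 33.9 CPM in icaritin libraries of SNT-8, to 30.7 to 37.4 against 29.9 to 37.0 CPM in SNK-10, and to 27.6 to 28.8 against 27.0 to 29.6 CPM in SNT-16. The markers above 1 CPM did not move as one in SNT-8: from DMSO to icaritin libraries the mean of the receptor CSF1R was 13.0 and 7.32 CPM, that of lysozyme, LYZ, 11.1 and 13.8 CPM, and that of CD68 8.81 and 8.54 CPM. CD14, CD163 and MRC1 averaged at most 0.058 CPM over all libraries. The part of these markers in the MMP12 values was not tested.

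DHRS2 (NCBI Gene 10202) had the smallest falls of the 6, and in SNK-10 the label of a gene strongly lowered by icaritin did not hold. It lay at 603, 599 and 569 CPM in DMSO and 263.5, 233 and 262.5 CPM in icaritin libraries of SNT-8. In SNT-16 it lay at 589, 579 and 548 CPM against 291, 319 and 324 CPM. In SNK-10 it lay at 159, 169 and 158 CPM against 125, 131 and 129 CPM, so the arms did not overlap but were near each other. The log2 fold changes were -1.22 in SNT-8 (95% interval -1.33 to -1.12), -0.88 in SNT-16 (-0.98 to -0.77) and -0.33 in SNK-10 (-0.45 to -0.21). In SNK-10, 3023 of the 14396 tested genes had a lower log2 fold change, against 278 in SNT-8 and 495 in SNT-16. Its neighbour DHRS4-AS1, at 19.0 CPM on the mean of all libraries, passed the threshold in no line (edgeR adjusted p = 0.318, 0.0887 and 0.980 in SNT-8, SNK-10 and SNT-16). On the other side, JPH4 rose in SNK-10, from 11.5 to 15.3 CPM (log2 fold change 0.41, edgeR adjusted p = 0.0273), and lay under 1 CPM in both SNT lines. That call was lost with DESeq2 (adjusted p = 0.0838), with limma (0.195) and without any one of 4 single libraries, SNK-10 DMSO replicate 1 or 3 or icaritin replicate 1 or 2 (edgeR adjusted p up to 0.141).

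**Figure D2:**
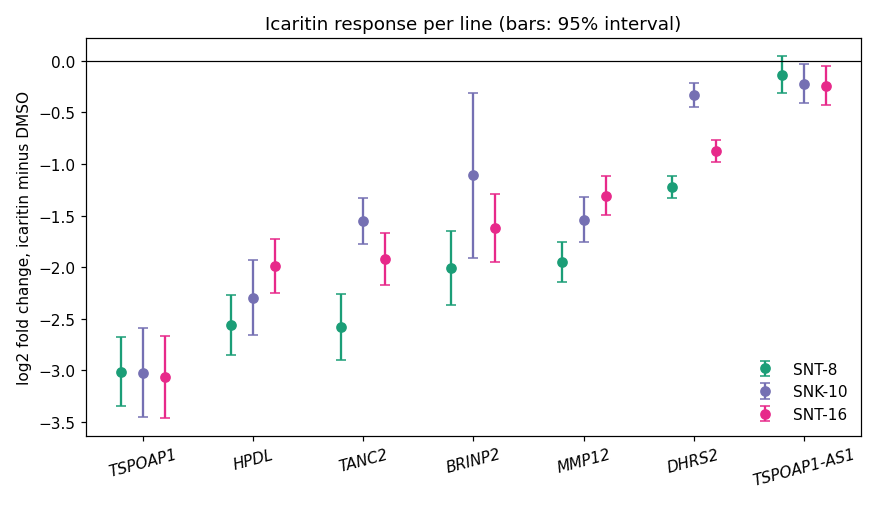
Log2 fold change, icaritin minus DMSO, of the 6 genes and of TSPOAP1-AS1 in each line, with 95% intervals from the edgeR fit (3 libraries per arm). TSPOAP1 lies near -3 in all lines, DHRS2 ranges from -1.22 in SNT-8 to -0.33 in SNK-10, and the overlapping TSPOAP1-AS1 lies between -0.25 and -0.14. The 6 genes were picked for these values.

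Read side by side, the estimated falls put the lines in different orders for different genes. Some 95% intervals overlapped, among them those of SNK-10 and SNT-16 for HPDL, BRINP2 and MMP12. TSPOAP1 differed by 0.05 at most on the log2 scale between lines. SNT-8 had the largest falls of HPDL, TANC2, BRINP2, MMP12 and DHRS2. SNK-10 had the smallest falls of TANC2, BRINP2 and DHRS2, and SNT-16 those of HPDL and MMP12. Whether the falls differed between lines was not tested, since the genes were chosen on these contrasts. Non-overlap in all 3 lines together held for 15.9% of tested genes. In SNT-8, icaritin replicate 2 was the lowest of the 3 icaritin libraries for 6 of the 6 genes. It was lowest for 1802 (50%) of the 3602 genes that fell in that line, whatever the size of the fall. Nothing is read from this contrast, since the 6 genes were picked for large falls in these same libraries. The RNR2 share of that library, 2.78%, was above those of the other icaritin replicates (2.22% and 2.12%). Without that library, the log2 fold changes in SNT-8 were -2.80 for TSPOAP1, -2.44 for HPDL, -2.34 for TANC2, -1.75 for BRINP2, -1.81 for MMP12 and -1.17 for DHRS2.

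The level of a gene in cells that received DMSO was not part of the choice, although the same DMSO libraries enter the falls. For 5 of the 6 genes SNK-10 differed from both SNT lines, and MMP12, DHRS2, BRINP2 and HPDL were lower there. The share of all tested genes that differed from both SNT lines at once was not computed, so nothing is read from this count. Of 14396 tested genes, 57.6% differed between SNK-10 and SNT-8 (edgeR adjusted p under 0.05), 57.8% between SNT-16 and SNK-10 and 13.2% between SNT-16 and SNT-8, so a difference from SNK-10 is common. By direction, 27.8% were higher in SNT-8 than in SNK-10 and 29.9% lower, 27.7% were higher in SNT-16 than in SNK-10 and 30.1% lower, and 5.89% were higher in SNT-16 than in SNT-8 and 7.34% lower. BRINP2 showed the widest gap. Its DMSO mean was 2.98 CPM in SNK-10 against 28.0 CPM in SNT-8, a log2 difference of -3.22 (SE 0.197, edgeR adjusted p = 2.91e-13), and 32.3 CPM in SNT-16, which was 3.43 above SNK-10 (SE 0.193, edgeR adjusted p = 5.13e-14). MMP12 was 3.97-fold higher in SNT-8 and 3.81-fold higher in SNT-16 than in SNK-10 (edgeR adjusted p = 1.63e-11 and 2.33e-11). DHRS2 was 3.65-fold and 3.53-fold higher (edgeR adjusted p = 5.35e-29 and 1.08e-28), and HPDL 1.90-fold and 2.17-fold higher (edgeR adjusted p = 4.80e-09 and 3.58e-11).

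TANC2 was ordered the other way. It was 2.24-fold higher in SNK-10 than in SNT-8 and 1.46-fold higher than in SNT-16 (edgeR adjusted p = 1.10e-13 and 1.53e-06), and SNT-16 lay 1.53-fold above SNT-8 (edgeR adjusted p = 1.93e-05). TSPOAP1 was highest in SNT-8, 1.93-fold above SNK-10 and 1.65-fold above SNT-16 (edgeR adjusted p = 1.96e-07 and 1.14e-04). Its levels in SNT-16 and SNK-10 did not pass the threshold (log2 difference 0.23, 95% interval -0.05 to 0.51, edgeR adjusted p = 0.133). Between both SNT lines no difference passed for HPDL (log2 difference 0.19, 95% interval -0.02 to 0.41), BRINP2 (0.21, -0.08 to 0.49), MMP12 (-0.06, -0.24 to 0.12) or DHRS2 (-0.05, -0.15 to 0.06), with edgeR adjusted p = 0.218, 0.338, 0.726 and 0.605. Per length, the order in DMSO cells of SNT-8 was MMP12 (562 FPKM), DHRS2 (350.6), HPDL (18.7), BRINP2 (7.45), TSPOAP1 (5.95) and TANC2 (1.73), and in SNK-10 MMP12 (141), DHRS2 (96.6), HPDL (9.79), TANC2 (3.85), TSPOAP1 (3.05) and BRINP2 (0.787). After icaritin the first places changed in SNK-10, where DHRS2 lay at 76.6 ± 2.78 FPKM and MMP12 at 47.2 ± 1.31 FPKM. In SNT-8 after icaritin these genes lay at 158 ± 12.8 and 150.3 ± 29.3 FPKM, within the spread of the replicates.

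The deposited files also give a transcript length for each gene and library, which varies where a gene has several transcripts and so moves with the mix assigned to it. Of the 6 genes, DHRS2 and TSPOAP1 have several, and this readout was taken up after its values were seen. For DHRS2 the length went down with icaritin in each line. It was 1671, 1669 and 1669 bases in DMSO and 1645, 1642 and 1643 bases in icaritin libraries of SNT-8, 1665, 1665 and 1668 against 1639, 1641 and 1641 bases in SNT-16, and 1656, 1649 and 1644 against 1605, 1615 and 1626 bases in SNK-10. No arm overlapped the other, and the mean differences were -34.50 bases in SNK-10, -26.8 in SNT-8 and -25.5 in SNT-16. SNK-10, where the RNA of DHRS2 fell least, thus also showed the change in length. The mean difference over the lines was -28.9 bases. It is given without a test, since the separation of the arms was seen before the readout was taken up. Lengths below all DMSO libraries in each line were found for 1.73% of 7868 tested genes with several transcripts, and for 4.27% of the 1474 of these with a mean expected count of at least 1000. For TSPOAP1 the arms overlapped in SNT-8 (7541 to 7562 bases in DMSO, 7518 to 7556 in icaritin libraries) and in SNK-10 (7554 to 7630 against 7518 to 7698). In SNT-16 the icaritin libraries lay above (7530 to 7578 against 7579 to 7671 bases), but the arms nearly met, at 7577.75 and 7578.54 bases. The icaritin lengths there rest on 43, 21 and 38 counts. The mean difference over the lines was 33.1 bases. Lengths above all DMSO libraries in each line were found for 1.16% of the 7868 genes. The files do not say which transcript each read was given to, and the lengths are the authors' estimates.

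**Figure D3:**
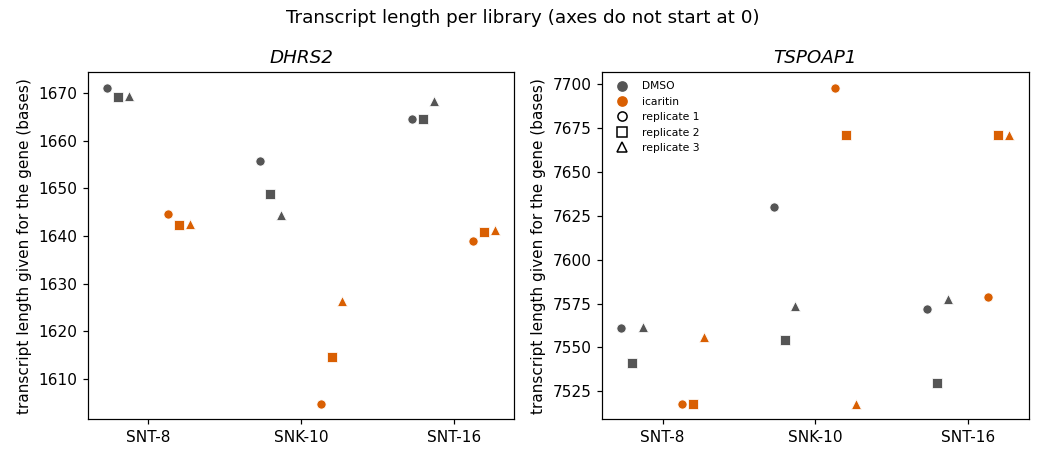
Transcript length in bases given for DHRS2 (left) and TSPOAP1 (right) in each library; grey is DMSO, orange is icaritin, marker shape gives the replicate, and the axes do not start at 0. For DHRS2 all icaritin libraries lie below all DMSO libraries of their line, with mean differences of -34.50 to -25.5 bases. For TSPOAP1 the arms overlap in SNT-8 and SNK-10 and nearly meet in SNT-16.

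Promoter sequences, from 250 bases before to 50 after the start in RefSeq's GRCh38.p14 annotation, were at hand for 3 of the 6 genes: HPDL (chr1:45326645-45326944, plus strand), TANC2 (chr17:62965985-62966284, plus strand) and DHRS2 (chr14:23629865-23630164, plus strand). They are shown so that the starts of these 3 genes can be compared. Capitals mark a match to a searched motif.
HPDL: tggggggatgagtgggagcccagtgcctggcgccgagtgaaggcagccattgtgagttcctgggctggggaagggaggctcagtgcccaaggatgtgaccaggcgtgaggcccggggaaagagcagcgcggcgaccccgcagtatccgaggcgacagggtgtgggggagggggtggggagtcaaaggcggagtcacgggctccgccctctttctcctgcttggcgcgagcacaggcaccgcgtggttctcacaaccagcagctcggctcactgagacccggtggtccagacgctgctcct
TANC2: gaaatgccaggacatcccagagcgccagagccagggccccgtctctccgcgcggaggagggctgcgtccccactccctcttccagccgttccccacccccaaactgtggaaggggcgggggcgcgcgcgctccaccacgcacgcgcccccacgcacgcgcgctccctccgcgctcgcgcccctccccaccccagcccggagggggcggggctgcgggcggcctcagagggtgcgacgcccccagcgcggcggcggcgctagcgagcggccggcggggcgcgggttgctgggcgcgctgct
DHRS2: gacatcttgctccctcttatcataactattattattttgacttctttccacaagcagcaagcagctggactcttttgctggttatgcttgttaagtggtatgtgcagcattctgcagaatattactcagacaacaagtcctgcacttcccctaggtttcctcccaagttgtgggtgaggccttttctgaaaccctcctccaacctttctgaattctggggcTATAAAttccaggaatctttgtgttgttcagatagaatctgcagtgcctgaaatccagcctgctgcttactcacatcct

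The window of TANC2 was 78.7% G and C with 42 CG pairs, that of HPDL 67.3% with 20, and that of DHRS2 44.0% with 0, against medians of 58.7% and 14 over 35116 promoters. On both strands, 6 motifs were searched: the E-box CACGTG (found in 7.26% of promoters), the C/EBP-ATF element TGATGCAA (0.866%), the CCAAT box (34.6%), the TATA box TATAAA (11.5%), the CHR element TTTGAA (15.2%) and the cyclic AMP element TGACGTCA (1.85%). The DHRS2 window held the TATA box, from 29 bases before the start. The windows of HPDL and TANC2 held no match. A match describes letters in this window and is no sign of binding.

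Relatives and pathway partners were listed by family, though with earlier results of these data known, and were tested for icaritin against DMSO. Of 96 listed genes 49 were tested. In SNT-8, 9 rose and 9 fell, in SNK-10 11 rose and 11 fell, and in SNT-16 8 rose and 7 fell (edgeR adjusted p under 0.05), which is 18 of 49, 22 of 49 and 15 of 49 against a background of 49.1%, 48.4% and 42.0% of all tested genes. Their median log2 fold change was 0.05, 0.04 and -0.02, and that of all tested genes 0.02, 0.01 and 0.02. List medians ran from -0.15 to 0.46 in SNT-8, and no list stood at one end in every line: the 3 MACPF relatives of BRINP2 were at 0.46 in SNT-8, -0.20 in SNK-10 and -0.25 in SNT-16.

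The partners of HPDL moved in both directions. Of 13 coenzyme Q genes, 1 rose and 2 fell in SNT-8, 3 rose and 4 fell in SNK-10, and 2 rose and 3 fell in SNT-16. PDSS1, which makes the isoprenoid tail of coenzyme Q, fell in each line, from 26.0 ± 1.58 to 15.3 ± 1.51 CPM in SNT-8 (log2 fold change -0.77, SE 0.0952, edgeR adjusted p = 1.01e-08), with -0.63 in SNK-10 and -0.39 in SNT-16 (edgeR adjusted p = 8.82e-07 and 5.67e-04). COQ8A, an atypical kinase that supports coenzyme Q synthesis, rose in each line, from 44.2 ± 1.93 to 87.4 ± 16.8 CPM in SNT-8 (0.98, SE 0.0951, edgeR adjusted p = 1.30e-08), with 0.98 and 0.93 in SNK-10 and SNT-16 (edgeR adjusted p = 2.02e-08 and 4.76e-08). Of 3 tested genes of tyrosine breakdown, FAH, which encodes the last enzyme of that route, fell in each line (log2 fold changes -0.38, -0.33 and -0.31, edgeR adjusted p = 4.30e-06, 8.70e-05 and 1.11e-04 in SNT-8, SNK-10 and SNT-16).

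Among the partners of TSPOAP1, 7 of 13 were tested, of which 2 rose in each line, and 3 fell in SNT-8 and 1 in SNK-10. RIMS3, a relative of the RIM proteins that RIM-binding proteins hold at synapses, rose in each line, from 29.0 ± 0.483 to 47.8 ± 0.964 CPM in SNT-8 (0.72, SE 0.0775, edgeR adjusted p = 3.72e-10), with 0.46 and 0.56 in SNK-10 and SNT-16 (edgeR adjusted p = 0.00239 and 1.34e-07). ACBD3, which binds TSPO, rose as well (0.43, 0.31 and 0.39, edgeR adjusted p = 7.33e-04, 0.00931 and 0.00198), though in SNK-10 not without icaritin replicate 3 (edgeR adjusted p = 0.058). DBI, which encodes a peptide ligand of TSPO, fell by 0.29 on the log2 scale in SNT-8 (edgeR adjusted p = 4.03e-04) and by 0.19 in SNK-10 (0.0198), where the call was lost without single libraries (edgeR adjusted p up to 0.129), and was at -0.10 in SNT-16 (0.236). TSPO itself was nearly absent from the SNT lines (DMSO means 0.0338 and 0.0680 CPM) and lay at 4.25 CPM in DMSO and 3.94 CPM in icaritin libraries of SNK-10. TANC1, the relative of TANC2, was not among the 7 of 16 genes of its list with enough counts. In that list 3 rose in SNT-8 and 3 in SNK-10, 1 fell in SNT-16, and the others did not pass. DLGAP4, a scaffold partner, rose in SNK-10 from 39.4 ± 2.21 to 58.6 ± 2.32 CPM (0.57, SE 0.0677, edgeR adjusted p = 3.42e-09).

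Of 11 MACPF relatives of BRINP2, 3 were tested, of which 2 rose and 1 fell in SNT-8 and 1 rose and 1 fell in each other line. PRF1, the perforin of cytotoxic lymphocytes, fell a little in each line (log2 fold changes -0.30, -0.24 and -0.25, edgeR adjusted p = 2.74e-07, 1.75e-05 and 8.44e-06), and ASTN2 rose in each (0.46, 0.28 and 0.26, edgeR adjusted p = 8.06e-08, 4.93e-04 and 4.91e-04). BRINP1 was not listed and BRINP3 averaged 0.0566 CPM, too low to test. Of 26 metalloproteinases and their TIMP inhibitors, 6 were tested, and 1 fell, MMP19 in SNK-10, a gene named here after its values were seen, while the others did not pass. Besides MMP12, the metalloproteinases with at least 10 CPM over all libraries were MMP9 (14.2 CPM) and MMP25 (11.1 CPM), and TIMP1 lay at 120.4 CPM; none of these 3 passed in any line. Of 10 tested DHRS genes, 1 rose and 2 fell in SNT-8, 2 rose and 3 fell in SNK-10, and 3 rose and 1 fell in SNT-16. DHRS7 was at 0.22 in SNT-8, where it did not pass, and rose by 0.35 on the log2 scale in SNK-10 and by 0.26 in SNT-16 (edgeR adjusted p = 0.0674, 0.00617 and 0.0441). The SNT-16 call was lost when any one of the 6 libraries of that line was left out (edgeR adjusted p = 0.0662 to 0.141) and with the replicate block (0.119). DHRS3, a retinal reductase gene named after its values were seen, rose in SNK-10 from 4.85 ± 0.492 to 24.4 ± 1.06 CPM (2.33, SE 0.158, edgeR adjusted p = 2.99e-14) and was at or near 0 in both SNT lines. DHRS4 was at -0.46, -0.48 and -0.26 and DHRS4L2 at -0.43, -0.45 and -0.39 in SNT-8, SNK-10 and SNT-16. DHRS4 passed in SNT-8 and SNK-10 (edgeR adjusted p = 0.0023 and 0.00307) and DHRS4L2 in all 3 (0.0153, 0.0185 and 0.0352), but single libraries ended each DHRS4L2 call (edgeR adjusted p up to 0.159), and both are near-identical copies between which reads may be split.

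**Figure D4:**
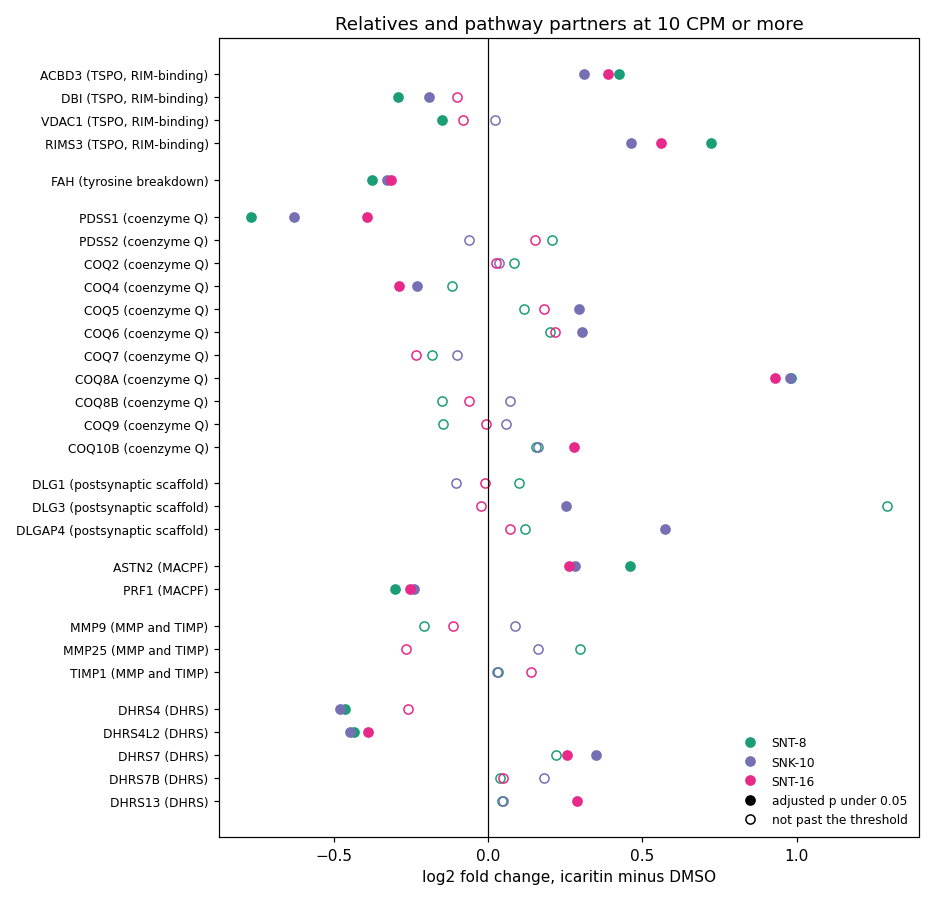
Log2 fold change, icaritin minus DMSO, of the tested relatives and pathway partners with at least 10 CPM, by line (colour); filled marks passed an edgeR adjusted p of 0.05 and open marks did not. Marks lie on both sides of 0 in most lists, with COQ8A between 0.93 and 0.98 and PDSS1 between -0.77 and -0.39.

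Finally, genes whose log2 CPM ran most like each of the 6 over the 18 libraries were looked up among 9326 other genes with at least 10 CPM, the 6 left out. Among the 6 themselves, BRINP2 and DHRS2 were the most alike (r = 0.990) and TANC2 and DHRS2 the least (0.069). Lines and arms both enter these values of Pearson's r, which describe the libraries and carry no test. TSPOAP1 ran most like KRI1 (r = 0.982), BRD2 (0.978) and HNRNPF (0.976). HPDL ran most like HEXIM1 (0.983), which encodes an inhibitor of the transcription elongation factor P-TEFb, and DHX33 (0.974). TANC2 ran most like CKAP2 (0.973), EMG1 (0.972) and CCDC85B (0.971). BRINP2 and DHRS2 shared the chemokine receptor gene CCR8 as the most alike outside the 6 (0.991 and 0.987), followed by JUNB (0.987) and CRYBG1 (0.986) for BRINP2 and by CNP (0.985) and ZBED2 (0.983) for DHRS2. MMP12 ran most like the T cell adhesion gene CD2 (0.994), RARS1 (0.989) and MZB1 (0.989). All of these genes had negative log2 fold changes in the 3 lines, from -1.40 for ZBED2 in SNT-16 to -0.19 for CNP in SNK-10. Nothing is read from this shared direction, since they were matched to genes picked for falling in the same libraries.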

How the data were processed

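Per the labels, RNA was extracted with Trizol and 1 ug went into MGIEasy libraries; Bowtie2 and HISAT are named in the submitters' processing notes, without versions. No source used here gives the genome build, the counting tool or its strand setting. Per the file headers, the authors deposited expected counts, FPKM and a transcript length for each gene of each library, keyed by NCBI Gene ID; where a library did not list a gene, its count was set to 0. Symbols came from a GRCh38.p14 table, by ID for 21559 of 21662 genes and by transcript for 24, and 79 had none.

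Expected counts were rounded and fitted with edgeR 4.0.16 in R 4.3.3 (filterByExpr, minimum count 10, minimum total 15; TMM; robust quasi-likelihood; 6 group means, 12 residual degrees of freedom; common biological coefficient of variation 4.4%). P-values were two-sided and adjusted by Benjamini and Hochberg over 14396 genes, threshold 0.05. The SE is the absolute log2 fold change over the square root of F, and a 95% interval is 2.179 SE either side. DESeq2 1.42.0 and limma 3.58.1 on log2(FPKM + 0.1) served as alternatives. Data were also simulated for SNT-8 with 14297 genes, of which only a small part was changed and all had the same spread. Of the genes changed 2-fold 87% were called, and of those changed 4-fold 95%. In the real libraries of SNT-8, 49.1% of tested genes were called, so these shares describe the simulation only.

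The genes, the related lists and the motifs were chosen with earlier results of these data known. Named genes were the 6, TSPOAP1-AS1, up to 4 of each related list at 10 CPM or more with the smallest p, those needed to say which relative is expressed, the nearest listed neighbours, and the 3 most alike in log2 CPM (prior count 2), of which 1 gene is not reported here. Markers of NK and T cells, B cells, macrophages and neurons were listed. The 5 B cell markers summed to 1.64 to 15.9 CPM, and 4 of them lay under 1 CPM in every group. Most of the sum was PAX5. Its DMSO means were 14.0 CPM in SNT-8, 2.32 in SNK-10 and 13.9 in SNT-16, and its icaritin means 7.65, 1.84 and 10.4 CPM. Replicate pairs differed by more than sampling noise (chi-square per gene 1.37 to 8.18 at a mean count of at least 50). The highest values, 8.18 and 5.96, were those of the pairs with SNT-8 icaritin replicate 2, and all other pairs lay at 4.13 or below.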

Additional observations from a re-analysis of the deposited data

Results flagged for a closer look

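The response of DLGAP4 to icaritin differed between the lines (interaction test with edgeR, adjusted p = 2.35e-04): its log2 fold change was 0.07 in SNT-16, 0.12 in SNT-8 and 0.57 in SNK-10. Among all tested genes, 14.3% passed this test, and of the 49 tested relatives 2 did, DLGAP4 and the complement gene C7, which was named after its value was seen.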

How the results depend on the processing

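Each of the 18 falls kept its direction under every alternative run. Nothing is read from that, since the genes were picked for falling in these same libraries. Of the 18 falls, 1 moved by more than the spread of its replicates, TSPOAP1 in SNK-10, at -2.76 with limma on log2(FPKM + 0.1). Of the differences between DMSO lines, TSPOAP1 between SNT-16 and SNT-8 lost its call there (-0.66, adjusted p = 0.0635), and DHRS2 between these lines turned to 0.004 there and to 0 with library totals only. Fitted on the compared groups alone, HPDL between SNT-16 and SNT-8 (0.19) and TSPOAP1 between SNT-16 and SNK-10 (0.22) passed (edgeR adjusted p = 0.0481 and 0.0234). Of the related genes, 7 fell in SNT-16, but 4 with DESeq2 and 11 in the fit of that line alone; 11 fell in SNK-10, but 6 to 9 without single libraries. The interaction called 2 related genes, and 1 with DESeq2, 4 with limma and 1 to 3 without single libraries. The cause of these changes was not tested. Replicate numbers did not pair the libraries (r of same-numbered deviations -0.129 to 0.042). With a replicate block the falls of TSPOAP1 were -3.01, -3.02 and -3.07, and the interaction called 1 related gene. The length difference of DHRS2 transcripts, whose alternatives were chosen after seeing the data, ranged from -30.8 to -27.2 bases without single libraries. Counts of 10 to 32 a library limit BRINP2 in SNK-10.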
